A study of Mus musculus with 22 samples.

Results

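The exostosins are the 5 glycosyltransferases Ext1, Ext2, Extl1, Extl2 and Extl3, which start, build and end heparan sulfate chains. They were taken as every non-control probe on the array whose gene name, or the accession of the same gene, was one of these symbols. This gave 7 probes of 41174, standing for 5 of 20806 named genes. Ext1, Ext2 and Extl2 had 1 probe each, and Extl1 and Extl3 had 2.

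Heparan sulfate and chondroitin sulfate are long sugar chains carried by proteoglycans of the cell surface and matrix, and both are built in the Golgi on the same short linker attached to a serine of the core protein. Chondroitin chains follow when an N-acetylgalactosamine is added to that linker, and heparan chains follow when an N-acetylglucosamine is added, so the enzymes of both chains share a substrate. In the developing limb, heparan sulfate binds hedgehog, fibroblast growth factor and bone morphogenetic protein ligands, and inactivating mutations of human EXT1 or EXT2 cause hereditary multiple exostoses, with cartilage-capped bony outgrowths near the growth plates.

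Forelimbs were collected from mouse embryos of strain 129 at 13.5 days, 9 of wild-type genotype and 13 lacking Chsy-1 (Chsy1), the gene of chondroitin sulfate synthase 1, a chondroitin-extending enzyme. The question put to the exostosins was whether the heparan side of the machinery differed when Chsy1 was missing. Forelimb RNA carried Cy5 and a universal mouse reference RNA carried Cy3 on every 2-colour oligonucleotide array, without dye swaps, and each value below is a log2 ratio of forelimb over reference. The series describes its samples as biological replicates. Its labels leave unsaid whether a sample is 1 embryo or a pool, and which segment of the gene was altered. Where samples are not separate embryos, the p-values measure a spread that may be partly technical.

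The median Cy5 signal of an array ran from 102.8 to 178.9 in wild type and from 138.2 to 175.1 in knockout. The forelimb factor Tbx5 was well above background on all 22 arrays. So were the hindlimb markers Pitx1 and Tbx4, so these flags do not check which limb was sampled. For Chsy1 itself, the wild-type arrays averaged 1.73 ± 0.28 (SD, n = 9) on the log2 scale and the knockout arrays -4.38 ± 1.39 (SD, n = 13), a difference of -6.11 (SE 0.438, limma adjusted p = 1.29e-08). The array labelled knockout 1 stood apart at 0.15, while the other 12 knockout arrays were at -4.05 or lower. All 13 knockout arrays lay below the lowest wild-type array, at 1.28. Wild type 1 also stood apart and had the lowest array weight, 0.214. Without wild type 1 the differences, knockout minus wild type, were 0.06 for Ext1, -0.14 for Ext2, -0.36 for Extl1, 0.03 for Extl2 and -0.06 for Extl3, and none passed the adjusted threshold.

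The probes are 60 bases long and are placed by the array files on the mouse build mm8. Ext1 was read at chr15:52903383-52903442 and Ext2 at chr2:93496588-93496647, both on the minus strand. Extl2 was read at chr3:116020673-116020732 on the plus strand. The brighter Extl3 probe lies at chr14:64006199-64006258 and the dimmer at chr14:64008548-64008607, both on the minus strand and both listed under the same transcript accession. The brighter Extl1 probe lies at chr4:133628664-133628723 on the minus strand, the strand of the gene. The dimmer Extl1 probe lies at chr4:133644692-133644751, is listed under another cDNA accession, and runs in the plus orientation, opposite to the gene. The listed orientation matched the gene's strand for 18622 of 18701 probes named by their own accession that could be checked (99.6%). The dimmer Extl1 probe was named by its symbol, so that share does not cover it. Given its orientation, it may not read the Extl1 transcript and is described apart from the brighter probe. An exon or untranslated-region annotation on mm8 was not used here.

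The start-site windows below show the CG dinucleotides of Extl1, whose values differed most between the genotypes, and of Ext2 and Extl2. They are RefSeq windows of GRCm38.p6, from 250 bases before to 50 bases after an annotated start, printed 5′ to 3′ on the gene's strand with CG dinucleotides in capitals. They are chr4:134372498-134372797 (minus strand) for Extl1, chr2:93822519-93822818 (minus strand) for Ext2 and chr3:116007199-116007498 (plus strand) for the first of 2 Extl2 starts. Ext1 and Extl3 had no entry in the table.
Extl1: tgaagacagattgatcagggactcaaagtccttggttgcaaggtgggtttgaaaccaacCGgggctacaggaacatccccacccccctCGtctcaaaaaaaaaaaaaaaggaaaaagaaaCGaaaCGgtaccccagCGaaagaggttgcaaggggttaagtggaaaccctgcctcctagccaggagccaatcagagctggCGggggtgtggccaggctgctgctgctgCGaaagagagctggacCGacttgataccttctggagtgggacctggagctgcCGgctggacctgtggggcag
Ext2: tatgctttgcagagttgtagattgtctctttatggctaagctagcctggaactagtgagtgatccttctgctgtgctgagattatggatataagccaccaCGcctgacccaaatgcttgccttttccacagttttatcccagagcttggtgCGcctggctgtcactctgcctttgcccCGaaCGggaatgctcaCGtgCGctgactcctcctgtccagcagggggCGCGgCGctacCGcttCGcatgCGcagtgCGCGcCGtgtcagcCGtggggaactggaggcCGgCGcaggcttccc
Extl2: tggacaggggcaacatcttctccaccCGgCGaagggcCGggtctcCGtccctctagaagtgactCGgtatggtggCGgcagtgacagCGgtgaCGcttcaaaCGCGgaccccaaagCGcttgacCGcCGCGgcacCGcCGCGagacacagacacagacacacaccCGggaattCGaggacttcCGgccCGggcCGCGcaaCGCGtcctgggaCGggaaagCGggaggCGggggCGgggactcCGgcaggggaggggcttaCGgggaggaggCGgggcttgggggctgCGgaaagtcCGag
The Extl1 window held 9 CG dinucleotides, a number that 56.5% of 32851 mouse windows did not exceed, beside a median of 7. The Ext2 window held 18, which 71.9% of windows did not exceed, and this Extl2 window 34, which 93% did not exceed. The window of the other Extl2 start, chr3:116008047-116008346 (plus strand, not printed), held 6, which 47.9% did not exceed, so Extl1 had fewer than the first Extl2 start and more than the other. The letters TATAAA were on neither strand of these 4 windows, and 13.6% of all windows held them. These counts describe the sequence and were tied to no expression value.

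No exostosin passed the test between the genotypes. Across the 18661 genes and unnamed probes tested, 4 passed a limma adjusted p of 0.05 (0.0214%), all lower in knockout, namely Chsy1, Grb14, Pcolce2 and Ptx3. The last 3 were named after their values were seen. The count was 1 with slide or with position as a block and with the scanner's own ratio, so these settings end 3 of the 4 calls. The 5 exostosin differences, knockout minus wild type on the log2 scale, ran from -0.29 for Extl1 to 0.04 for Ext1, and 3 of 5 were negative, beside 53.4% of all genes tested. The ranges of the genotypes overlapped for all 5, as for all but 1 of the genes tested (0.00536% apart). At an unadjusted p under 0.05, 2 members were lower and none higher, beside 3.95% and 1.38% of all genes tested. The largest difference was that of Extl1, at 0.82 of the wild-type level (95% interval 0.712 to 0.944). For the polymerase subunits Ext1 and Ext2 and the chain-starting Extl3, the 95% intervals of the fold lay between 0.848 and 1.13. All 5 intervals lay within 1.5-fold of wild type, as did 96.6% of all those computed. The medians over all genes tested were -0.0072 for the difference and 0.0579 for its size. In bulk RNA of a whole limb, fewer cells of a type and less RNA per cell cannot be told apart.

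The mean log2 ratios in wild type and knockout were 1.23 ± 0.20 and 1.20 ± 0.14 for Extl3, -0.12 ± 0.16 and -0.07 ± 0.14 for Ext1, and -0.45 ± 0.15 and -0.57 ± 0.11 for Ext2 (SD, n = 9 and 13). Those of Extl1 were 1.27 ± 0.30 and 0.98 ± 0.19, and those of Extl2 were -0.90 ± 0.13 and -0.89 ± 0.14 (SD, n = 9 and 13). After normalisation the ratio was above 0 on all 22 arrays for Extl1 and Extl3 and below 0 on all 22 for Ext2 and Extl2, while Ext1 lay on both sides. Each probe has its own zero, set by the reference RNA and the normalisation, so the members are not put in order of abundance. Within genotypes, Ext2 was the steadiest member, with a residual SD of 0.124 that 16.7% of the genes tested did not exceed, and Extl1 the most variable, with 0.236, which 66.9% did not exceed.

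**Figure D1:**
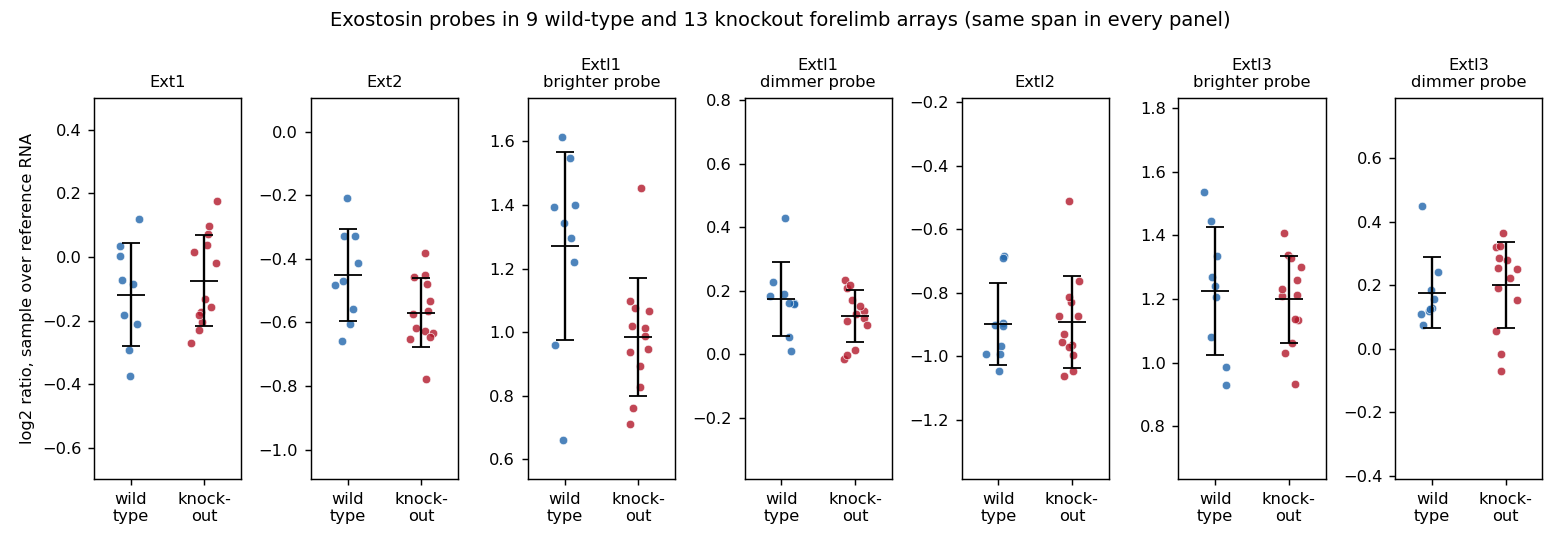
Log2 ratio of sample over reference (y axis, the same span in every panel) for the 7 exostosin probes in 9 wild-type (blue) and 13 knockout (red) arrays, each point 1 array, with bars for the mean and SD. The genotypes overlap in every panel, and the mean of the brighter Extl1 probe is 1.27 in wild type and 0.98 in knockout.

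Extl3 adds the first N-acetylglucosamine that commits the linker to a heparan chain. The log2 ratio of its brighter probe had a lowest, median and highest value of 0.93, 1.24 and 1.54 in wild type and of 0.93, 1.21 and 1.41 in knockout. The knockout range lay inside the wild-type range, with 8 of 13 knockout arrays below the wild-type median. The difference was -0.03 (95% interval -0.18 to 0.12, limma adjusted p = 0.982, exact permutation p = 0.715, two-sided), 0.982 of the wild-type level with an interval of 0.886 to 1.09. The dimmer Extl3 probe had a median Cy5 signal of 157.5 against a background of 56, and its log2 ratios were 0.08, 0.13 and 0.45 in wild type and -0.07, 0.25 and 0.37 in knockout. Its difference was 0.02 (95% interval -0.10 to 0.15), but ratios of a probe this near background are compressed, so it is no second measurement of the same weight. Across the 22 arrays, after taking away each genotype mean, the Extl3 probes had Pearson r = -0.24 (permutation p = 0.29) and Spearman rho = -0.26 (permutation p = 0.23). That r was 0.10 within wild type, -0.53 within knockout and -0.50 with the scanner's own ratios. The 2 probes thus did not rise and fall together, and the cause was not tested.

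Ext1 and Ext2 form the Golgi complex that extends the chain by adding glucuronic acid and N-acetylglucosamine in turn. Ext1 ratios were -0.38, -0.09 and 0.12 (lowest, median, highest) in wild type and -0.27, -0.13 and 0.18 in knockout. The ranges overlapped over most of their length, with 7 of 13 knockout arrays below the wild-type median. The Ext1 difference was 0.04 (SE 0.067, 95% interval -0.09 to 0.18, limma adjusted p = 0.972, exact permutation p = 0.507, two-sided), a fold of 1.03 (0.937 to 1.13).

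Ext2 ratios were -0.66, -0.47 and -0.21 in wild type and -0.78, -0.57 and -0.38 in knockout. The ranges overlapped, 10 of 13 knockout arrays were below the wild-type median, and only knockout 12 was below every wild-type array. The Ext2 difference was -0.12 (SE 0.0573, 95% interval -0.24 to -0.0007, unadjusted p = 0.0488, limma adjusted p = 0.917, exact permutation p = 0.0382, two-sided), a fold of 0.921 (0.848 to 1). It did not pass the adjusted threshold, and 994 of the 18661 genes tested (5.33%) had an unadjusted p under 0.05. Scaling the arrays after loess brought the Ext2 value to -0.001 and median centring in place of loess to -0.01, the latter relative to the median of all genes. The arrays of slide position 2 gave -0.18.

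Extl1 adds N-acetylglucosamine to growing heparan chains in enzyme assays and is the least broadly expressed of the family. Its brighter probe had a Cy5 signal from 270.9 to 632.4, with a median of 465.3 against a background of 54.5, and was well above background on all 22 arrays. Its log2 ratios were 0.66, 1.34 and 1.61 in wild type and 0.71, 0.99 and 1.45 in knockout. The genotypes overlapped, and 12 of 13 knockout arrays were below the wild-type median. The lowest value of all 22 after normalisation was that of wild type 1, at 0.66. By the scanner's own ratio that array was at 2.00, and the lowest was knockout 8, at 1.07. The low value of wild type 1 therefore depends on the processing. The Extl1 difference after normalisation was -0.29 (SE 0.0987, 95% interval -0.49 to -0.08). Its unadjusted p was 0.00784, its limma adjusted p 0.909 and its exact permutation p 0.0122, two-sided over 497420 regroupings. It therefore did not pass the test over all genes, of which 737 were lower in knockout at an unadjusted p under 0.05. Without wild type 1 the difference was -0.36 (limma adjusted p = 0.477).

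The plus-orientation probe under the Extl1 name was well above background on 15 arrays (6 wild type, 9 knockout), with a median Cy5 signal of 86.6 against a background of 56. Its Cy3 reference signal was well above background on only 1 of 22 arrays, so its ratio has no measured reference. The ratios were 0.01, 0.16 and 0.43 in wild type and -0.01, 0.13 and 0.23 in knockout, and no difference between the genotypes is read from them.

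Extl2 can add N-acetylglucosamine to a linker that carries a phosphate, which stops the chain. Its log2 ratios were -1.05, -0.90 and -0.68 in wild type and -1.06, -0.93 and -0.51 in knockout. The ranges overlapped almost wholly, with knockout 1 lowest and knockout 12 highest of all arrays. The difference was 0.01 (95% interval -0.12 to 0.14, limma adjusted p = 0.994, exact permutation p = 0.92, two-sided), a fold of 1 (0.918 to 1.1). Its sign turned to negative in several settings, among them the fit with slide position as a block, at -0.0116.

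**Figure D2:**
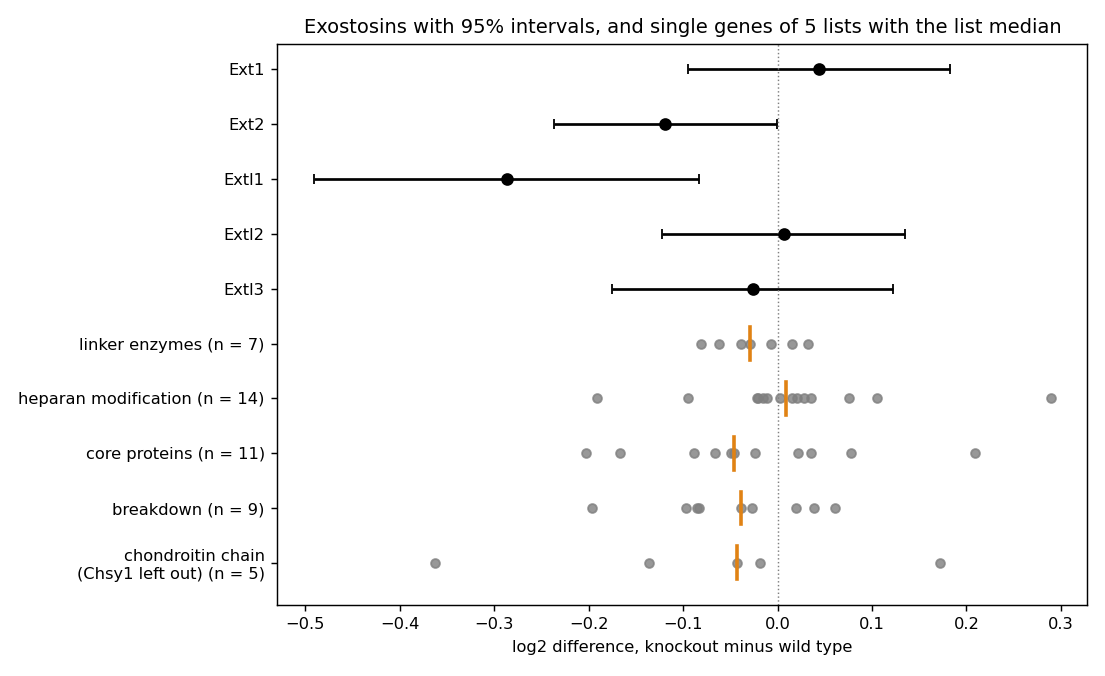
Log2 difference, knockout minus wild type (x axis), for the 5 exostosins (black points, bars are 95% intervals) and for single genes of 5 lists of proteoglycan chain genes (grey points, orange marks for the list median). The Extl1 interval, from -0.49 to -0.08, lies wholly below 0 and that of Ext2 ends at -0.0007, while those of Ext1, Extl2 and Extl3 span 0.

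The 22 arrays came from 6 slides scanned on 1 day, and every slide held both genotypes. Extl1 was lower in knockout on 6 of 6 slides, with differences from -0.60 to -0.06. Ext2 was lower on 4 of 6 slides (-0.34 to 0.10), Extl2 and Extl3 on 3 of 6 each, and Ext1 on 2 of 6. Within a slide the groups held 1 to 3 arrays, so these values carry no test. Place on the slide went largely with genotype: all 6 arrays of position 1 were wild type, position 2 had 3 of each genotype, and the 6 arrays of position 3 and the 4 of position 4 were knockout. In position 2 alone the differences were 0.12 for Ext1, -0.18 for Ext2, -0.37 for Extl1, -0.01 for Extl2 and -0.03 for Extl3.

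**Figure D3:**
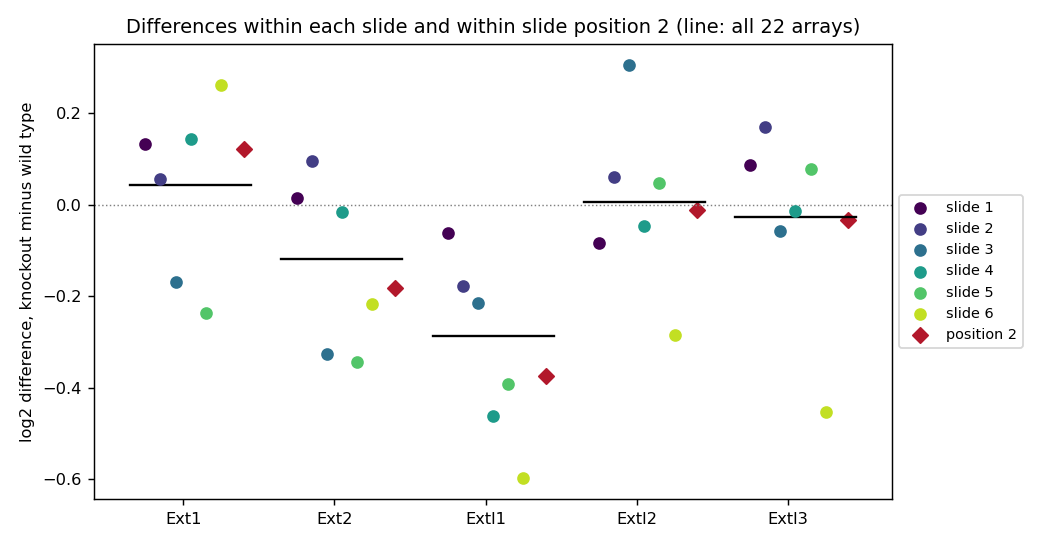
Log2 difference, knockout minus wild type (y axis), of the 5 exostosins within each of 6 slides (circles, 1 colour a slide), within slide position 2 (red diamonds) and over all 22 arrays (black lines). Extl1 is below 0 on every slide, from -0.60 to -0.06, and each of the others lies on both sides of 0.

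Extl1 was negative in all 19 other settings and in all 22 that left out 1 array, with an unadjusted p under 0.05 in 40 of these 41. These fits reuse the same 22 arrays, so their number is no repeated test. The Aquantile, probe filter and trended variance settings left the Extl1 difference at -0.29, since they do not change its ratios. The values of the brighter probe ran from -0.40 to -0.24. Averaging in the plus-orientation probe, which may not read Extl1, gave -0.17. The exception in p was position as a block (-0.37, p = 0.0703). That difference and the one of position 2 alone are the same, and come from 3 arrays of each genotype. In the other settings slide position went largely with genotype, so the effects of position and genotype cannot be fully told apart there. No exostosin passed the adjusted threshold in any of these 41 fits, and the lowest adjusted p was 0.112, that of Extl1 with median centring. Its unadjusted limma p there was 0.0199, above the 0.00784 of the reported fit. In that setting 2352 genes passed relative to the median of all genes, and 1 without that step. Ext2 was negative throughout, from -0.18 to -0.001, and its unadjusted p was under 0.05 in 13 of 41. Ext1 was positive throughout, from 0.01 to 0.15. Knockout 1, whose Chsy1 ratio stood apart, mattered little to the members: without it the differences were 0.04 for Ext1, -0.11 for Ext2, -0.27 for Extl1, 0.02 for Extl2 and -0.0043 for Extl3.

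**Figure D4:**
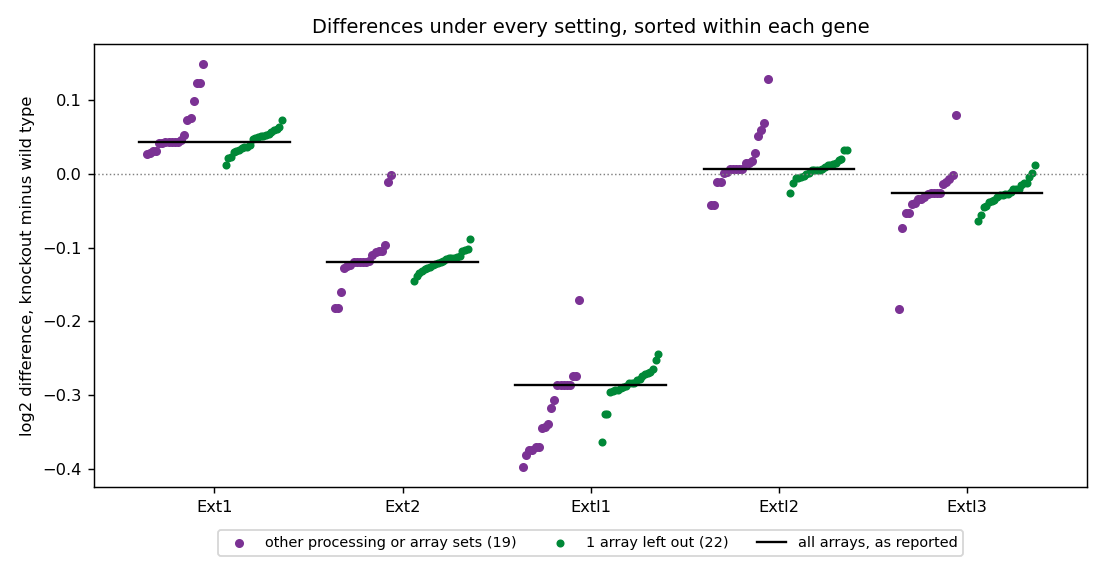
Log2 difference, knockout minus wild type (y axis), of each exostosin as reported (black line), in 19 other processing settings or array sets (purple) and in 22 fits leaving out 1 array (green), sorted within each gene. All Extl1 points lie below 0, the highest, -0.17, being the mean of both probes under that name, and Extl2 and Extl3 have points on both sides.

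No gene of the 4 lists of enzymes and proteins that act with the exostosins passed the test, beside 0.0214% of all genes tested. These lists were chosen with earlier results of these data known and are described by counts, beside 53.4% of all genes tested that were lower. Of the 7 genes that build and mark the shared linker, 5 were lower and 2 higher in knockout, none passed the test, and the median difference was -0.03. Xylt1, which starts the linker, was at -0.0072, Fam20b, the kinase that phosphorylates its xylose, at -0.04, and B3gat3, which adds its last sugar, at 0.02. Xylt2 had the smallest p of the list, at -0.08 (95% interval -0.21 to 0.05, limma adjusted p = 0.932).

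Of 18 genes that modify heparan chains, 14 were tested, 6 lower and 8 higher, none passing, with a median of 0.01. Ndst1, the main enzyme that replaces acetyl groups by sulfate, was at 0.02, and the 3-O-sulfotransferase gene Hs3st3a1 had the smallest p, at 0.29 (95% interval -0.03 to 0.61, limma adjusted p = 0.917). Ndst3 and Hs3st5 were too dim to test, and Hs3st4 and Hs3st6 had no probe under these names on the array. Of 13 genes of the core proteins that carry the chains, 11 were tested, 7 lower and 4 higher, none passing, with a median of -0.05. Hspg2 had no probe under that name on the array, and Gpc5 was too dim to test. Gpc4, a glypican of the cell surface, had the smallest p at -0.17 (95% interval -0.30 to -0.03, limma adjusted p = 0.917). Of 10 heparan breakdown genes, 9 were tested, 6 lower and 3 higher, none passing, with a median of -0.04. Hpse2 had no probe under that name on the array. The heparanase gene Hpse was at -0.20 (95% interval -0.46 to 0.07, limma adjusted p = 0.924).

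On the chondroitin side, 5 of 6 genes that start or extend the chain were lower, beside 53.4% of all genes tested. The 5 include Chsy1, missing by design, which alone passed the test. Csgalnact1, which adds the N-acetylgalactosamine that starts a chondroitin chain, was at -0.36 (95% interval -0.62 to -0.10, unadjusted p = 0.00804, limma adjusted p = 0.909). Its relative Csgalnact2 was at -0.02. The medians of the heparan lists lay from -0.05 to 0.01, beside -0.0072 over all genes tested.

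No pair of exostosins passed a test for varying together across arrays. Deviations from the genotype mean were correlated over 22 arrays for 10 pairs, with p-values adjusted over the 10. The polymerase partners Ext1 and Ext2 had Pearson r = 0.09 (permutation p = 0.69, adjusted 0.74) and Spearman rho = 0.05 (permutation p = 0.84, adjusted 0.84), and r was 0.14 without the 2 arrays farthest from the median. The highest was that of Extl3 and Extl1, with r = 0.55 (permutation p = 0.0071, adjusted 0.071) and rho = 0.44 (permutation p = 0.042, adjusted 0.18). Without wild type 1 that r was 0.46, and that of Extl2 and Extl1 went from 0.07 to 0.40. The r of Extl3 and Extl1 was 0.80 within wild type and 0.16 within knockout, and it was 0.78, 0.88 and -0.05 in slide positions 1, 2 and 3. The lowest was that of Extl3 and Ext1, with r = -0.42 (permutation p = 0.049, adjusted 0.15) and rho = -0.42 (permutation p = 0.055, adjusted 0.18). The difference between the genotypes in these r was not tested.

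The forelimb is a mixture of tissues. Several tissue lists had most members on one side by genotype, beside 53.4% of all genes tested that were lower. Of 12 skeletal muscle markers 11 were lower in knockout (median -0.15), with a list mean of 2.24 to 3.17 in wild type and 2.29 to 2.95 in knockout. Of 11 cartilage markers 9 were lower (median -0.10), with 2.29 to 3.84 in wild type and 2.77 to 3.60 in knockout. Surface ectoderm markers were lower in 7 of 8 (median -0.12), with 0.44 to 1.12 in wild type and 0.47 to 0.89 in knockout. Endothelium markers were lower in 7 of 8 (median -0.03), with 1.15 to 2.43 in wild type and 1.38 to 2.36 in knockout. All 5 osteoblast markers tested were lower (median -0.05), with -2.16 to -1.75 in wild type and -2.28 to -1.94 in knockout, the smallest p being that of Alpl, an alkaline phosphatase, at -0.44 (unadjusted p = 0.00452, limma adjusted p = 0.909). All 7 Schwann cell and neural crest markers were higher (median 0.15), with 0.69 to 1.60 in wild type and 1.32 to 1.75 in knockout. The lowest wild-type value of each list here but the osteoblast one was that of wild type 1, the array that stood apart. Its deviation from the genotype mean was -0.69 for the Schwann cell list and -1.13 for cartilage. How far the list differences rest on that array was not tested. No marker of these lists passed the test, and the part of these tissues in the exostosin values was not tested.

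The tissue list with which Extl1 had its highest r within genotypes was that of Schwann cells and neural crest. Its deviations went with the Schwann cell and neural crest mean at Pearson r = 0.80 (n = 22 arrays, permutation p = 3e-05, 0.0018 adjusted over 60 combinations of member and list) and Spearman rho = 0.64 (permutation p = 0.002, adjusted 0.12). The r was 0.52 without wild type 1 and knockout 6, the arrays farthest from the median, and 0.65 without wild type 1 alone. It was 0.92 within wild type and 0.54 within knockout, a difference that was not tested, and 0.68 with the scanner's own ratios. Within slide positions 1, 2 and 3, of 6 arrays each, it was 0.96, 0.99 and 0.82. Position 1 includes wild type 1 and position 3 includes knockout 6. Between the genotypes this list was higher in knockout while the Extl1 value was lower. Extl1 also had r = 0.70 with the tendon list, 0.64 with cartilage and 0.62 with skeletal muscle (adjusted permutation p = 0.01, 0.033 and 0.033), with adjusted Spearman p of 0.28, 0.28 and 0.18. These r were 0.50, 0.33 and 0.42 without wild type 1, and 0.13, 0.44 and 0.30 with the scanner's own ratios.

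Ext1 went with the erythroid list at r = 0.54 (permutation p = 0.01, adjusted 0.046) and rho = 0.56 (permutation p = 0.0074, adjusted 0.18). That r was 0.73 without wild type 1, 0.67 without wild type 3 and wild type 1, the arrays farthest from the median, and 0.51 with the scanner's own ratios. Without wild type 1 it was thus above the 0.65 of Extl1 with the Schwann cell list, so no member is ranked first.

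Extl2 ran opposite to the forelimb and limb mesenchyme list, with r = -0.75 (permutation p = 0.00021, adjusted 0.0063) and rho = -0.53 (permutation p = 0.013, adjusted 0.18). That r was -0.73 without wild type 1, -0.47 without wild type 1 and knockout 12 and -0.38 with the scanner's own ratios. Over all 60 combinations, 13 had an adjusted Pearson p under 0.05 and 0 had both Pearson and Spearman adjusted p under 0.05. The sign of r changed in 11 combinations without wild type 1 and in 16 with the scanner's ratios. Array brightness, taken as the median Cy5 signal, had r with the members between -0.34 and -0.06 (adjusted permutation p from 0.61 to 0.79, rho adjusted p = 0.92 for each).

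**Figure D5:**
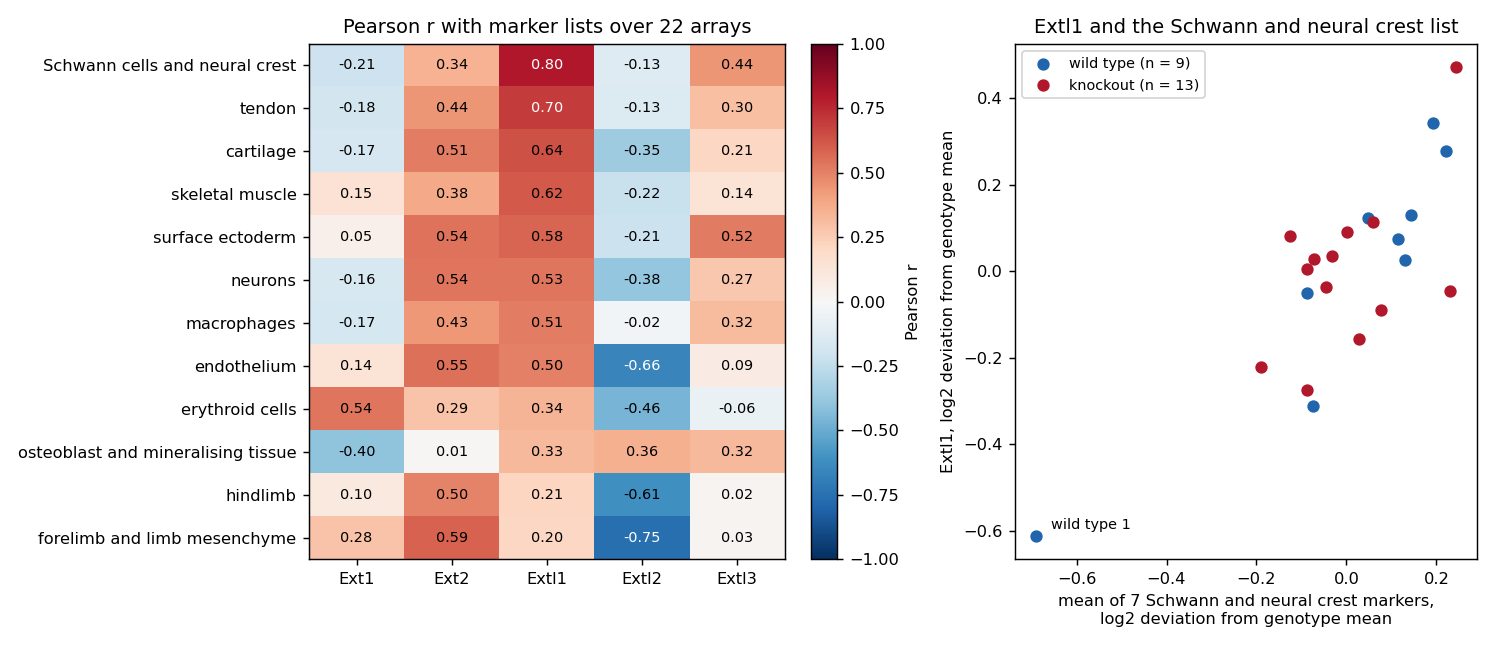
Left, Pearson r over 22 arrays between each exostosin (columns) and the mean of each tissue marker list (rows), after taking away genotype means, on a colour scale from -1 to 1. Right, deviation of Extl1 (y axis, log2) against that of the mean of 7 Schwann cell and neural crest markers (x axis, log2), with wild type 1 at the lower left and r = 0.80 over all arrays.

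The genes whose deviations were most like those of each member, of 18660 compared over the 22 arrays, are given as a description. For Ext1 they were Hadh (r = 0.91), Mbnl2 (0.90) and Mfap3 (0.90), and 135 genes had r over 0.8. For Ext2 they were Dnajc1 (0.88), Sync (0.87) and Tpcn1 (0.86), with 13 genes over 0.8. For Extl1 they were Smtnl2 (0.86), an unnamed probe, A_52_P653367 (0.85), and the ganglioside synthase gene St8sia1 (0.84), with 14 over 0.8. For Extl2 they were Nceh1 (0.90), Smim4 (0.90) and Snx10 (0.89), with 74 over 0.8. For Extl3 they were Tcf7l2 (0.89), Camk2d (0.88) and Pdxk (0.88), with 60 over 0.8. No exostosin was among the genes most like another, and all arrays share the reference RNA and the slides.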

How the data were processed

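Per the labels' protocols, Cy5-labelled forelimb RNA was hybridised against Cy3-labelled reference RNA. The authors quantified spots with Agilent's Feature Extraction software, version 9.5 per the submitters' processing notes and 9.5.3.1 per the file headers. The deposited mean and background signals are raw intensities, and the deposited LogRatio is a log10 ratio of Cy5 over Cy3, after the software's own background subtraction and dye normalisation. The deposited value table differed from it by 0 on each array, and each column's median was 0. The scale, direction and values of that table are therefore those of the scanner, while its centring is not given in the sources used here. The deposited flags for signal above background, saturation and outliers are 0 or 1.

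From these files, intensities were corrected with normexp (offset 50) and normalised by loess within arrays, with control and outlier spots at weight 0. Spots of 1 probe were averaged. Testing required a Cy5 flag of well above background on 9 or more arrays, which left 27803 of 41174 probes. Names were updated through GRCm38.p6 tables: 23374 probes matched by accession, 109 by another listed accession, 6678 by current and 2887 by older symbol, 1226 kept the array's name and 6900 had none. A gene was read from its probe of highest mean intensity, giving 18661 genes and unnamed probes. Differences were fitted by lmFit and eBayes of limma 3.58.1 (R 4.3.3) on the log2 ratios of all 22 arrays, 9 wild type and 13 knockout, grouped by the genotype label, with no covariate and Benjamini-Hochberg adjustment over all of them at a threshold of 0.05. Single members also had an exact permutation test, and correlations one of 1e+05 resamples. The scripts were tested on simulated data. Precision is limited by how many arrays there were.

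The members, lists and tests were chosen with earlier results of these data known. Named were the members, Chsy1, 6 fixed partners, the called genes or else the gene of smallest p in each pathway list, and the 3 genes most like each member. Other settings covered background correction, normalisation, the Cy5 channel alone, the probe filter, probe averaging, array weights, a trended and robust variance, omission of arrays, and slide, position or replicate number as a block. Probe sequences and protein sequences were not used here.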

Additional observations from a re-analysis of the deposited data

Results flagged for a closer look

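The dimmer Extl3 probe had 1 array far from the others of its group. Wild type 2 had a log2 ratio of 0.45, while the other 8 wild-type arrays were between 0.08 and 0.24. The brighter Extl3 probe was at 1.27 on that array, inside its group's range. Such a gap arises by chance in about 1 in 20 groups. It was looked for in the 9 wild-type arrays of each of the 7 probes, and not in the 13 knockout arrays.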

How the results depend on the processing

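No exostosin passed the adjusted threshold under any of 19 other settings or without any of the 22 arrays. Ext1, Ext2 and Extl1 kept their direction in all of these. Extl2 (0.01 as reported) was -0.0116 with position as a block and in position 2 alone, and Extl3 (-0.03) was 0.08 with median centring, which moved the median of all genes to 0.24, values being relative to it. The causes were not tested. Leaving out 1 array gave 0.01 to 0.07 for Ext1, -0.14 to -0.09 for Ext2, -0.36 to -0.24 for Extl1, -0.0253 to 0.0328 for Extl2 (7 of 22 negative) and -0.0634 to 0.0124 for Extl3 (2 of 22 positive).

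The count of genes passing, 4 as reported, was 1 with the scanner's ratio, with slide or position as a block and without wild type 1 and knockout 12 together, 2 with a normexp offset of 0, 0 in position 2 alone, 7 with array weights and 2 to 6 without single arrays, the lowest without wild type 2, 5 or 6. Median centring gave 2352 relative to the median of all genes and 1 without that step, which was added after seeing the data.

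Deviations of same-numbered arrays correlated from -0.31 to 0.49, with 3 of 9 over 0.1. Only 1 wild-type array had its best partner under its own number. These values do not settle whether the replicate numbers pair the samples. Over numbers 1 to 9, the replicate block gave 0.03, -0.10, -0.27, -0.0422 and -0.05 for Ext1, Ext2, Extl1, Extl2 and Extl3 and 1 gene passing. The same arrays without the block, added after seeing the data, gave -0.0422 for Extl2 and 1 gene. The correlation of Ext2 with the endothelium list, 0.55, was -0.27 with the scanner's ratio. Aquantile leaves ratios as they are. Probes near background, such as the dimmer ones of Extl1 and Extl3, have compressed ratios. The brighter Extl1 probe also had a dim reference, with a median Cy3 signal of 114 against a background of 45. Its difference, -0.29 as reported, was -0.34 with a normexp offset of 0 and -0.38 with the scanner's ratio.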
